A study of Caenorhabditis elegans with 11 samples.

Results

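Whole L4 larvae of Caenorhabditis elegans that lacked atfs-1 were compared with wildtype larvae by RNA sequencing. The comparison set 3 libraries of the genotype atfs-1(null) against 3 libraries of wildtype, whose columns in the deposited tables are headed N2, and it covered every gene that passed an expression filter, 16013 of the 46926 genes in the deposited count table. The 6 libraries belong to a set of 11. The other 5 come from 3 samples with both mutations, atfs-1(null);nhr-180(cmh19), here called the double mutant, and 2 samples of nhr-180(cmh19), and those 5 served here to measure the loss of atfs-1 a second time, in libraries that the main comparison does not use. All animals were fed HT115 bacteria and collected in the fourth larval stage, and RNA was extracted from whole worms with Trizol. The lesion behind the name atfs-1(null), the number of animals per sample and whether poly(A) RNA was selected could not be taken from the labels. The replicates are labelled as biological; beyond that, the p-values measure the spread between these samples.

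The gene atfs-1 encodes a transcription factor that carries both a mitochondrial targeting sequence and a nuclear localization sequence. In healthy mitochondria the protein is imported and degraded, and when import falters it accumulates in the nucleus and turns on the mitochondrial unfolded protein response, which includes mitochondrial chaperones, proteases, import and metabolic genes. The labels name no stress treatment, so the comparison asks which transcripts differ without the factor in larvae that were not stressed on purpose.

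Total counts per library lay between 20860822 and 22880659. Transcript of atfs-1 (WBGene00013878, chromosome V, 14193663 to 14197700 in WBcel235) had 0.42, 4.2 and 3.51 CPM in atfs-1(null), against 54.7, 52.3 and 54.3 CPM in wildtype, so the libraries followed their labels. Of the 6 libraries, wildtype replicate 2 and atfs-1(null) replicate 1 stood apart from the rest of their groups on the second principal component. Pearson correlations between libraries, taken over genes, on log2 CPM, ran from 0.960 to 0.988 among atfs-1(null) libraries and from 0.978 to 0.993 among wildtype libraries. Levels of some tissue markers went with these 2 libraries: wildtype replicate 2 was lowest of the 6 in oocyte and sperm genes, and atfs-1(null) replicate 1 was highest in both and lowest in muscle and pharynx markers. The summed level of 30 oocyte genes was 3477, 1986 and 3344 CPM in atfs-1(null), against 2684, 1462 and 2163 CPM in wildtype, and that of 92 sperm genes was 6478, 2466 and 3323 CPM in atfs-1(null), against 3404, 1360.0 and 2559 CPM in wildtype, with 4 of the 92 at a count of 0 in all 6 libraries. Body wall muscle markers (18 genes) summed to 13199, 15709 and 23465 CPM in atfs-1(null), against 24694, 21718 and 23102 CPM in wildtype, and pharynx markers (9 genes) to 333, 558 and 1159 CPM in atfs-1(null), against 914, 761 and 851 CPM in wildtype. Intestine markers summed to 2588, 3984 and 3874 CPM in atfs-1(null), against 4870, 4653 and 4675 CPM in wildtype. Hypodermis markers gave 3675, 2887 and 2744 CPM, against 3784, 3814 and 3782 CPM, and coelomocyte markers 48.6, 45.7 and 47.1 CPM, against 58.3, 55.3 and 64.6 CPM. In these every atfs-1(null) library lay below every wildtype library. Sums of neuron, vulva and uterus, and germline markers overlapped. In whole animals fewer cells of a type and less RNA per cell cannot be told apart, and the part of tissue composition in the results below was not tested. Counts of genes called in a list are therefore also given with both left out where that moves them by more than 1.5 times.

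Transcripts that differed between atfs-1(null) and wildtype reached well beyond mitochondrial genes. At an adjusted p under 0.05, edgeR's quasi-likelihood test called 2291 genes, which is 14.3% of those tested, 1207 higher (7.54%) and 1084 lower (6.77%) in atfs-1(null). Among the called genes, 681 were more than 2-fold higher and 495 more than 2-fold lower. In 2263 of the 2291 the libraries of the groups did not overlap, a pattern that 31.7% of all tested genes showed. Of the 2291 genes, 942 (510 higher and 432 lower) were called in the same direction under each of the 15 other settings, which include leaving out any 1 of the 6 libraries. The number called was 1450 without wildtype replicate 1 and 1132 without wildtype replicate 3, and it was 2125 with both libraries that stood apart left out. On the deposited TPM values rises made up 65.2% of calls, against 52.7% on counts; the median log2 fold change of all genes was 0.11 with TPM of at least 1 in 2 libraries and 0.06 with counts, and directions are read relative to these.

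**Figure D1:**
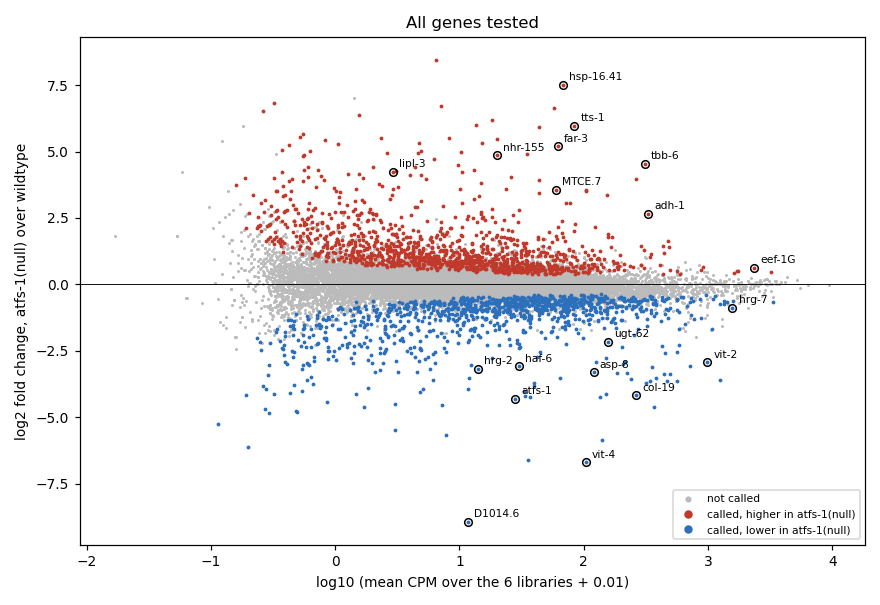
Log2 fold change of atfs-1(null) over wildtype (vertical axis) against the mean CPM of the 6 libraries on a log10 axis, 1 point per gene tested. Called genes are coloured by direction (1207 higher, 1084 lower) and 19 genes are labelled, from hsp-16.41 at 7.52 to D1014.6, the lowest of all genes.

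The 12 largest rises among well measured genes with a gene-class name ran from 3.99 to 7.52 on the log2 scale, and all 12 were called under every setting tried. They belonged to several unrelated families. The small heat shock gene hsp-16.41 (7.52 ± 0.35) and its relative hsp-16.2 led, followed by dod-3 (downstream of daf-16) and tts-1, a long noncoding RNA. The fatty acid and retinol binding protein gene far-3 had 205, 93.2 and 63.1 CPM in atfs-1(null), against 2.34, 4.49 and 2.95 CPM in wildtype, which is 5.20 ± 0.46 as log2 fold change ± SE. The next were gmd-2 (4.91 ± 0.52), which encodes a GDP-mannose dehydratase, the nuclear receptor gene nhr-155 (4.86 ± 0.43), the C-type lectin gene clec-61 (4.73 ± 0.41) and the beta-tubulin gene tbb-6 (4.54 ± 0.18). The poly(ADP-ribose) glycohydrolase gene parg-2 had 14.7, 32 and 28.1 CPM in atfs-1(null), against 1.17, 1.11 and 1.45 CPM in wildtype (4.32 ± 0.30). The cyclic nucleotide gated channel gene cng-1 (4.24 ± 0.34) and the nematode-specific peptide gene nspe-7 (3.99 ± 0.35) completed the group. In each of these genes every atfs-1(null) library lay above every wildtype library, as the rule for choosing them required.

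The 12 largest falls ran from -6.70 to -3.94. Besides atfs-1 itself (log2 fold change -4.31 ± 0.53, adjusted p = 0.000408) they were 3 yolk protein genes, 7 cuticle collagen genes and the nuclear receptor gene nhr-234. The yolk genes vit-4, vit-3 and vit-5 resemble one another so closely that reads may be split among them. All 12 were called under every setting tried. The falls of the collagens col-179 (-4.24 ± 0.69), col-119 (-4.22 ± 0.62), col-62 (-4.21 ± 0.62), col-19 (-4.16 ± 0.65), col-178 (-4.12 ± 0.69), col-7 (-4.003 ± 0.61) and col-143 (-3.94 ± 0.48) were close to one another in size. Of col-7 the libraries held 8.35, 2.33 and 0.954 CPM in atfs-1(null), against 74.1, 48.3 and 64.8 CPM in wildtype, so the lowest wildtype library stood well above the highest atfs-1(null) library.

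Among the most abundant transcripts the changes were modest. Of the 10 called genes with the highest mean TPM, F41F3.3 was the most abundant, at 2289.9 ± 232 TPM in atfs-1(null) and 3610.0 ± 841 TPM in wildtype (SD, n = 3 each), but its call (log2 fold change -0.75 ± 0.20, adjusted p = 0.0308) was lost without the second (0.0647) or the third (0.0708) atfs-1(null) library, wildtype replicate 1 (0.104) or wildtype replicate 3 (0.0958). The translation elongation factor gene eef-1G averaged 2290.0 ± 238 TPM in atfs-1(null) and 1388 ± 62.6 TPM in wildtype (SD, n = 3 each), with log2 fold change 0.62 ± 0.11, adjusted p = 0.00479. Its partner eef-1B.1, which exchanges the nucleotide of the same elongation factor, averaged 1553 ± 25.9 TPM in atfs-1(null) and 922 ± 41.7 TPM in wildtype (SD, n = 3 each), with log2 fold change 0.66 ± 0.13, adjusted p = 0.00816. Both rose under every setting, while of 81 cytosolic ribosomal protein genes edgeR called none (1 at an unadjusted p under 0.05, and 1 by DESeq2).

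The mitochondrial ribosomal RNAs stood out among genes encoded in the mitochondrial genome. The small-subunit rRNA MTCE.7 (MtDNA, 898 to 1593) had 137, 118.9 and 74.9 CPM in atfs-1(null), against 9.56, 7.08 and 11.4 CPM in wildtype (log2 fold change 3.56 ± 0.30, adjusted p = 3.91e-05). The large-subunit rRNA MTCE.33 (MtDNA, 10403 to 11354) had 58.7, 48.5 and 31.9 CPM in atfs-1(null), against 8.34, 5.83 and 8.85 CPM in wildtype (log2 fold change 2.59 ± 0.30, adjusted p = 0.000328). Every atfs-1(null) library lay several-fold above every wildtype library. The counts behind these levels were 3268, 2804 and 1727 counts in atfs-1(null), against 204, 153 and 228 counts in wildtype for MTCE.7. The nuclear-encoded rRNAs did not follow: rrn-3.1, a large-subunit rRNA gene, had 1033, 2046 and 1977 CPM in atfs-1(null), against 2242, 2101 and 2203 CPM in wildtype (log2 fold change -0.37 ± 0.25, adjusted p = 0.339), and rrn-2.1 was not called either (-0.29 ± 0.42). The 2 mitochondrial rRNAs were also higher in the second set of libraries, where MTCE.7 had 62, 106 and 67.9 CPM in the double mutant, against 10.5 and 13.8 CPM in nhr-180(cmh19) (log2 fold change 2.69 ± 0.34, adjusted p = 0.00117) and MTCE.33 stood at 1.59 ± 0.34. These 4 rRNA genes were chosen after their values were seen. How much rRNA remained in the libraries may depend on how they were prepared, and that was not tested.

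The messenger RNAs of the mitochondrial genome, which encode core subunits of the respiratory chain and the ATP synthase, did not show this rise. Of 12 tested, 1 was called lower and none higher. The cytochrome c oxidase subunit ctc-1 had 3138, 2978 and 2273 CPM in atfs-1(null), against 2383, 2362 and 2693 CPM in wildtype (log2 fold change 0.17 ± 0.18, adjusted p = 0.546), with overlapping groups, and the cytochrome b gene ctb-1 stood at -0.24 ± 0.21. The called member was nduo-5, a subunit of complex I (log2 fold change -0.54 ± 0.16, adjusted p = 0.0442), and the call was lost without any 1 library other than atfs-1(null) replicate 1. The median of these mRNAs relative to the wildtype mean was 0.35, -0.22 and -0.58 (log2) in the 3 atfs-1(null) libraries against -0.12, -0.01 and 0.16 in the wildtype libraries. The atfs-1(null) libraries did not share a direction.

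Nuclear genes of mitochondrial protein handling were lower, and none of them rose. Of 15 chaperone, protease and prohibitin genes 9 fell (5 to 10 over all settings), of 17 import genes 10 fell (7 to 14) and of 71 mitochondrial ribosomal protein genes 41 fell (14 to 52). Far fewer were called in the second set of libraries, which has 2 control libraries. In the double mutant against nhr-180(cmh19), 3 of the 15, 3 of the 17 and 2 of the 71 were called lower. There 8.21% of all genes tested were called lower. The median of the 71 relative to the wildtype mean was -0.38, -0.63 and -0.67 (log2) in atfs-1(null). It was -0.53, -0.44 and -0.69 in the double mutant and -0.39 and -0.14 in nhr-180(cmh19). In each of these lists the median of every mutant library lay below that of every wildtype library. A difference between the backgrounds was not tested for the lists. The gene hrg-9, described with the haem genes, is also counted in the list of 15. The DnaJ chaperone gene dnj-10 had 48.5, 45 and 53.5 CPM in atfs-1(null), against 92, 110.3 and 97.8 CPM in wildtype (log2 fold change -1.03 ± 0.13, adjusted p = 0.000524). The chaperone gene hsp-6, the worm's mitochondrial Hsp70 and the common reporter of the mitochondrial stress response, had 331, 461 and 573 CPM in atfs-1(null), against 1032, 980.2 and 994 CPM in wildtype (log2 fold change -1.14 ± 0.21, adjusted p = 0.0045). Both genes showed no overlap between the groups, whereas the inner membrane protease gene ymel-1 was not called (log2 fold change -0.38 ± 0.22, adjusted p = 0.274).

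Among import genes the inner membrane channel gene timm-17B.1 had 127, 139 and 145 CPM in atfs-1(null), against 216, 249 and 252 CPM in wildtype (log2 fold change -0.80 ± 0.12, adjusted p = 0.00144) and mppa-1, a subunit of the peptidase that removes targeting sequences, had 46.3, 42.4 and 54.5 CPM in atfs-1(null), against 99.1, 96.9 and 94.3 CPM in wildtype (log2 fold change -1.02 ± 0.14, adjusted p = 0.000835). The outer membrane receptor gene tomm-20 was not called (log2 fold change -0.54 ± 0.17, adjusted p = 0.0534). Of the mitochondrial ribosome mrpl-15 had 53, 45.1 and 50.3 CPM in atfs-1(null), against 83.8, 101 and 94.7 CPM in wildtype (log2 fold change -0.91 ± 0.13, adjusted p = 0.000981) and mrpl-2 had 22.2, 20.7 and 25.7 CPM in atfs-1(null), against 40.1, 42.2 and 41.7 CPM in wildtype (log2 fold change -0.85 ± 0.14, adjusted p = 0.00206). The most abundant member that was not called, mrpl-11, stood at -0.42 ± 0.16. Falls among ribosomal protein genes numbered 23 without atfs-1(null) replicate 2, 21 without atfs-1(null) replicate 3, 27 without wildtype replicate 1, 18 without wildtype replicate 2 and 14 without wildtype replicate 3, and 30 with both libraries that stood apart left out.

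Nuclear genes of mitochondrial cofactor synthesis were lower. Of 13 genes for coenzyme Q and iron-sulphur clusters 7 fell and none rose, with a median log2 fold change of -0.51. The coenzyme Q genes differed in size of change: coq-8, a kinase-like protein needed for its synthesis, had 47, 55 and 63.4 CPM in atfs-1(null), against 129, 154.8 and 144 CPM in wildtype (log2 fold change -1.37 ± 0.14, adjusted p = 0.000124), and the methyltransferase gene coq-5 had 47.7, 39.6 and 38 CPM in atfs-1(null), against 79.998, 97.8 and 87 CPM in wildtype (log2 fold change -1.08 ± 0.14, adjusted p = 0.000704). The polyprenyl synthase gene coq-1 stood at -0.74 ± 0.13, whereas the hydroxylase gene clk-1, chosen after its values were seen, had 28.7, 23.9 and 19.5 CPM in atfs-1(null), against 25.1, 25 and 24.1 CPM in wildtype and did not pass the test (adjusted p = 0.906). For iron-sulphur clusters, the cysteine desulphurase gene nfs-1 fell (log2 fold change -0.65 ± 0.11, adjusted p = 0.00305) and the scaffold gene iscu-1 had overlapping groups (-0.01 ± 0.19). The count of falls was 4 without wildtype replicate 1, 2 or 3, and 5 with both libraries that stood apart left out. In the double mutant against nhr-180(cmh19), 1 of the 13 was called lower and none higher.

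In the respiratory chain genes of complexes I, III and IV fell, and those of complex IV serve its assembly. The share called was 23.1%, 22.2% and 23.5% of the nuclear genes tested, against 14.3% of all genes, and all of these calls were lower. Of 13 nuclear complex I genes 3 fell: gas-1, which encodes a core subunit, had 160.2, 197 and 191 CPM in atfs-1(null), against 288, 344 and 324 CPM in wildtype (log2 fold change -0.80 ± 0.13, adjusted p = 0.00242), nduf-9 stood at -0.63 ± 0.11 and nuo-4 at -0.48 ± 0.12. The call of nuo-4 was lost without atfs-1(null) replicate 3 (0.0561), wildtype replicate 2 (0.0691) or wildtype replicate 3 (0.0710). In complex III 2 of 9 fell, including the core protein gene ucr-2.2 (log2 fold change -0.60 ± 0.12, adjusted p = 0.00757). All 4 of the 17 complex IV genes that fell serve its assembly: cox-15 and cox-10 make haem a, sco-1 delivers copper and cox-18 inserts a subunit into the membrane. Of cox-15 the libraries held 50.1, 51.3 and 59.3 CPM in atfs-1(null), against 83.8, 89.6 and 85.4 CPM in wildtype (log2 fold change -0.69 ± 0.12, adjusted p = 0.00397), and the structural subunit cox-4 held 530.5, 487 and 511 CPM in atfs-1(null), against 529.7, 539 and 526 CPM in wildtype (log2 fold change -0.06 ± 0.14, adjusted p = 0.792). The falls of sco-1 and cox-18 were -0.62 ± 0.12 and -0.64 ± 0.13, and that of cox-10 was -0.56 ± 0.17 with an adjusted p of 0.0467, a call lost without any single library other than atfs-1(null) replicate 3 (0.0653 to 0.148). Of 5 complex II genes edgeR called none, with 0 at an unadjusted p under 0.05 and 0 by DESeq2, and of 12 nuclear ATP synthase genes it also called none, with 1 and 0. Left out in turn, single libraries moved the count for complex III to 1 without wildtype replicate 1, 2 or 3 (also 1 with both libraries that stood apart left out), and that for complex I stayed between 2 and 4. In the double mutant against nhr-180(cmh19), 2 complex I genes and 1 complex III gene were called lower, and 1 complex IV gene higher.

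Of 17 mitochondrial carrier and calcium uptake genes 4 fell and none rose (23.5% called, against 14.3% of all genes), 3 of them solute carriers of the inner membrane. The dicarboxylate carrier gene slc-25A10 had 83.3, 92.1 and 84.4 CPM in atfs-1(null), against 153, 152 and 157 CPM in wildtype (log2 fold change -0.83 ± 0.13, adjusted p = 0.00153), slc-25A18.1 had 44.9, 68.2 and 57 CPM in atfs-1(null), against 98.3, 109.7 and 112 CPM in wildtype (log2 fold change -0.91 ± 0.16, adjusted p = 0.00332) and slc-25A21 stood at -0.70 ± 0.14. The adenine nucleotide translocator gene ant-1.1, which exchanges ADP for ATP, held 5566, 5436 and 5527 CPM in atfs-1(null), against 4792, 5174 and 4863 CPM in wildtype and did not pass the test (adjusted p = 0.372). Of 17 mitochondrial dynamics and mitophagy genes 1 rose and 1 fell (11.8% called, against 14.3% of all genes). The rise was that of allo-1, the autophagy adaptor known for the removal of paternal mitochondria in embryos. It had 130.1, 115 and 102 CPM in atfs-1(null), against 47, 51.9 and 47.5 CPM in wildtype (log2 fold change 1.25 ± 0.12, adjusted p = 0.000119), with no overlap between the groups. The fall was that of mtss-1, the mitochondrial single-stranded DNA binding protein gene, with 62.7, 51.1 and 47.1 CPM in atfs-1(null), against 76.5, 95.9 and 85.4 CPM in wildtype (log2 fold change -0.68 ± 0.18, adjusted p = 0.0291). Its call was lost without atfs-1(null) replicate 2 (0.0687), atfs-1(null) replicate 3 (0.0900), wildtype replicate 2 (0.0979) or wildtype replicate 3 (0.0903) and in a fit of the 6 libraries alone (0.0528). In the list rises numbered 2 without wildtype replicate 2 and 2 with both libraries that stood apart left out.

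**Figure D2:**
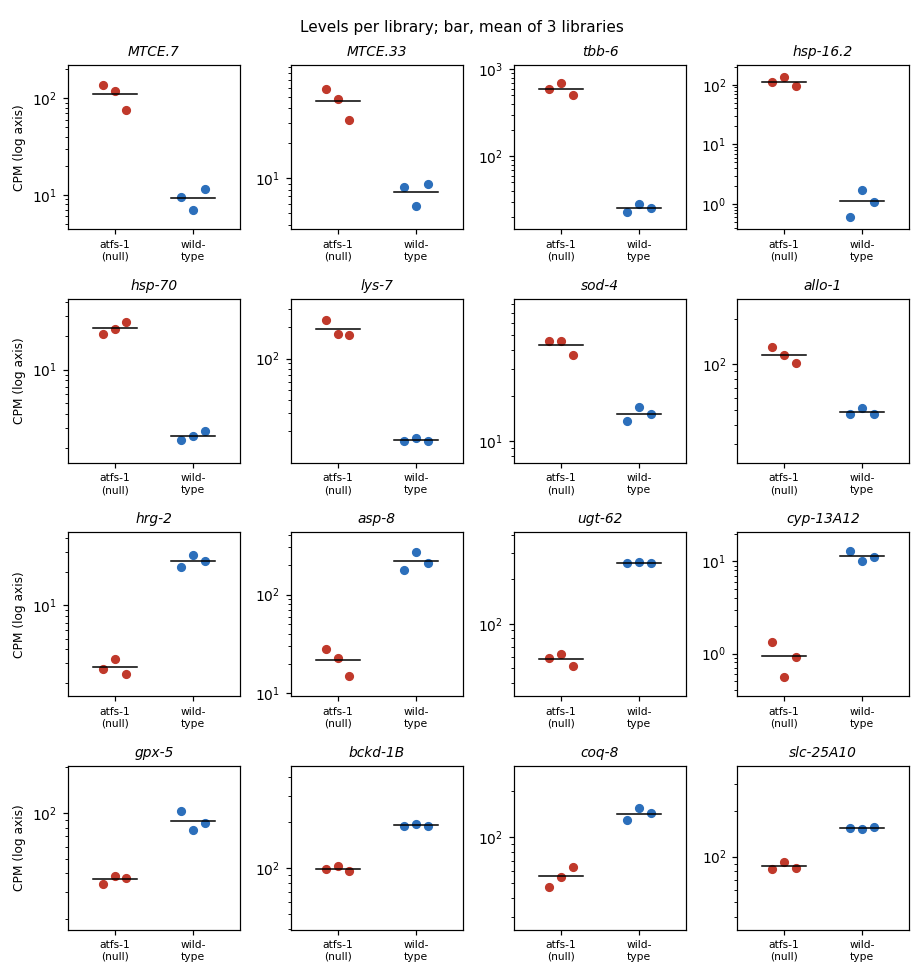
CPM per library on a log axis for 16 genes, atfs-1(null) on the left and wildtype on the right of each panel, with the mean of the 3 libraries as a bar. The first 8 panels are genes higher in atfs-1(null), such as MTCE.7 at 74.9 to 137 CPM against 7.08 to 11.4 CPM in wildtype, and the last 8 are genes that were lower.

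Many enzymes that break down amino acids were lower. Of 25 tested, 14 fell and none rose, with a median of -0.64, and the count was 11 to 15 when single libraries were left out and 12 with both libraries that stood apart left out. Branched-chain amino acids are oxidised by a mitochondrial dehydrogenase complex, and both of its leading named members fell: bckd-1B had 98.5, 104.03 and 95.2 CPM in atfs-1(null), against 189, 195 and 189 CPM in wildtype (log2 fold change -0.94 ± 0.11, adjusted p = 0.00029) and dbt-1 had 116, 125 and 116 CPM in atfs-1(null), against 207, 224 and 219 CPM in wildtype (log2 fold change -0.87 ± 0.11, adjusted p = 0.000668). The wildtype libraries stayed within a narrow band in both genes and the groups lay far apart. In the glycine cleavage system gcsh-1, the lipoate-carrying protein, had 19.1, 23.3 and 18.5 CPM in atfs-1(null), against 42.5, 56.4 and 42 CPM in wildtype (log2 fold change -1.21 ± 0.19, adjusted p = 0.00225), and gcst-1, the aminomethyltransferase, stood at -0.87 ± 0.15.

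Genes of 4 successive steps of the kynurenine pathway, which degrades tryptophan, were lower together. The formamidase gene afmd-1 stood at -1.70 ± 0.29, the kynurenine monooxygenase gene kmo-1 at -1.55 ± 0.26, the kynureninase gene kynu-1 at -0.96 ± 0.16 and the dioxygenase gene haao-1 at -0.92 ± 0.20. For kmo-1 the libraries held 8.31, 14.7 and 8.72 CPM in atfs-1(null), against 23.3, 38.4 and 31 CPM in wildtype, and for kynu-1 64.7, 81 and 66.3 CPM in atfs-1(null), against 119.8, 161 and 131 CPM in wildtype. The tyrosine-degrading enzyme gene hpd-1 stood at -0.87 ± 0.17. Not every degradation enzyme moved: ivd-1, of leucine breakdown, had 166, 170.0 and 197 CPM in atfs-1(null), against 189, 160.2 and 181 CPM in wildtype (adjusted p = 0.98). Of the 25 genes, 9 also fell in the double mutant against nhr-180(cmh19), a comparison in which 8.21% of all genes tested were called lower. The genes gcst-1, afmd-1, haao-1, hpd-1 and ivd-1 were chosen after their values were seen.

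The methionine cycle and phosphatidylcholine synthesis were mixed, with 5 of 17 genes lower and 2 higher. S-adenosylmethionine synthetase sams-1 had 373, 649 and 531 CPM in atfs-1(null), against 961, 1557 and 1165 CPM in wildtype (log2 fold change -1.25 ± 0.23, adjusted p = 0.00528) and the phosphoethanolamine methyltransferase gene pmt-2 had 444, 424 and 294 CPM in atfs-1(null), against 658, 921 and 776 CPM in wildtype (log2 fold change -1.02 ± 0.21, adjusted p = 0.00958). The cystathionine gamma-lyase gene cth-1 went the other way, with 131, 219 and 167 CPM in atfs-1(null), against 89.5, 83.5 and 85.5 CPM in wildtype (log2 fold change 0.999 ± 0.18, adjusted p = 0.00422). The groups did not overlap in any of these 3 genes. In nhr-180(cmh19) the level of sams-1 was already 429.7 and 475 CPM, against 628, 571 and 453 CPM in the double mutant, and the difference between backgrounds was 1.53 ± 0.35 with adjusted p = 0.0771. The falls in this list numbered 3 without wildtype replicate 2 or 3, and the rises 1 without atfs-1(null) replicate 1 or 3 or wildtype replicate 1, 2 or 3, also 1 with both libraries that stood apart left out.

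Of 31 genes of glycolysis, gluconeogenesis and trehalose metabolism 6 fell and 1 rose (22.6% called, against 14.3% of all genes). Hexokinase hxk-2 had 46.2, 46.6 and 53.1 CPM in atfs-1(null), against 82.1, 82.8 and 82.7 CPM in wildtype (log2 fold change -0.76 ± 0.11, adjusted p = 0.00152) and the phosphoglycerate mutase gene ipgm-1 stood at -0.59 ± 0.12. The glyceraldehyde 3-phosphate dehydrogenase gene gpd-2, which was not called (log2 fold change -0.42 ± 0.14, adjusted p = 0.0734), had 399.8, 511 and 487 CPM in atfs-1(null), against 563, 688 and 614 CPM in wildtype. Calls of pfk-1.1 (phosphofructokinase), enol-1 (enolase, chosen after its values were seen) and ldh-1 (lactate dehydrogenase) rest on single libraries. That of pfk-1.1 was lost without wildtype replicate 1, 2 or 3 (adjusted p 0.0900 to 0.126), that of enol-1 without any 1 of the 6 libraries (0.0701 to 0.160), and that of ldh-1 without atfs-1(null) replicate 1 (0.0533), wildtype replicate 2 (0.0944) or wildtype replicate 3 (0.0814). The falls in the list numbered 3 without wildtype replicate 1 or 2 and 2 without wildtype replicate 3, and 3 with both libraries that stood apart left out. The rises numbered 2 without atfs-1(null) replicate 2 and 0 without atfs-1(null) replicate 3 or wildtype replicate 1, 2 or 3.

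Fatty acid enzymes changed in opposite directions within one family. The desaturases fat-5, fat-6 and fat-7 all place the first double bond in saturated fatty acids. Of fat-5 there were 37.9, 19.7 and 21.6 CPM in atfs-1(null), against 4.78, 3.89 and 4.85 CPM in wildtype (log2 fold change 2.55 ± 0.24, adjusted p = 8.79e-05), whereas fat-7 had 1.72, 1.06 and 0.998 CPM in atfs-1(null), against 7.03, 7.12 and 5.8 CPM in wildtype (log2 fold change -2.39 ± 0.31, adjusted p = 0.000562). The third, fat-6, chosen after its values were seen, had 487, 393 and 326 CPM in atfs-1(null), against 413, 585 and 473 CPM in wildtype, overlapping between the groups (-0.29 ± 0.18). So one of these desaturases was higher, another lower and the last not called.

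Breakdown of lipid followed no single direction either. Of 65 acyl-CoA synthetase and beta-oxidation genes 15 fell and 5 rose. The acyl-CoA dehydrogenase gene acdh-2 had 7.72, 11.8 and 7.98 CPM in atfs-1(null), against 0.422, 0.601 and 0.55 CPM in wildtype (log2 fold change 4.12 ± 0.26, adjusted p = 5.78e-06), while acdh-9 had 47.2, 57 and 56.4 CPM in atfs-1(null), against 118, 126 and 110.2 CPM in wildtype (log2 fold change -1.14 ± 0.12, adjusted p = 0.000194). The peroxisomal acyl-CoA oxidase gene acox-1.2 fell (-0.89 ± 0.13), as did acdh-13 (-0.80 ± 0.13) and ech-5 (-0.74 ± 0.11), an enoyl-CoA hydratase gene. The propionate shunt gene acdh-1 was not called (log2 fold change 0.59 ± 0.25, adjusted p = 0.143), and edgeR called none of 11 propionate genes (1 at an unadjusted p under 0.05, and 0 by DESeq2). Falls in the list numbered 9 without wildtype replicate 3, and rises 3 without atfs-1(null) replicate 2 or 3 or wildtype replicate 1 and 2 without wildtype replicate 3.

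Several lipase genes were higher. Of 13 genes of lysosomal lipases and lipid droplets 6 rose and none fell, 6 or 7 rose when single libraries were left out, and with both libraries that stood apart left out 6 rose. The lysosomal lipase genes known to be induced by fasting led: lipl-3 had 6.8, 4.71 and 4.94 CPM in atfs-1(null), against 0.234, 0.231 and 0.4 CPM in wildtype (log2 fold change 4.23 ± 0.30, adjusted p = 1.23e-05), lipl-1 had 41.2, 28.5 and 25.8 CPM in atfs-1(null), against 9.79, 12 and 10.8 CPM in wildtype (log2 fold change 1.55 ± 0.19, adjusted p = 0.000416) and lipl-2 stood at 1.75 ± 0.32. All atfs-1(null) libraries lay above all wildtype libraries, though lipl-3 was scarce. The fasting-induced lipase gene fil-1 rose by 1.53 ± 0.23, the perilipin gene plin-1, which coats lipid droplets, by 0.90 ± 0.12, and the adipose triglyceride lipase gene atgl-1, chosen after its values were seen, by 0.60 ± 0.13. The call of atgl-1 was lost in a fit of the 6 libraries alone (0.0550), and in no other setting. In lipl-1, lipl-3 and fil-1 the effect of losing atfs-1 differed between backgrounds, by -1.65 ± 0.28, -3.75 ± 0.41 and -2.49 ± 0.33 (adjusted p = 0.0187, 0.00153 and 0.0042): nhr-180(cmh19) libraries held 2.64 and 2.22 CPM of lipl-3 and the double mutant 3.64, 2.64 and 3.9 CPM. The call of that difference in lipl-1 was lost without wildtype replicate 1 or 3 or any single library of the double mutant or nhr-180(cmh19) (0.0530 to 0.117), and in lipl-3 and fil-1 it was kept without any single library.

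Lipid carriers changed member by member. Of 17 fatty acid and lipid binding proteins 3 rose and 3 fell. Beside far-3, its relative far-4 rose (log2 fold change 3.67 ± 0.49, adjusted p = 0.000704) at low levels, with 1.13, 1.36 and 1.34 CPM in atfs-1(null), against 0.0469, 0.139 and 0.1 CPM in wildtype. The abundant far-1 had 1081, 1153 and 1224 CPM in atfs-1(null), against 1032, 1063 and 1005 CPM in wildtype and was not called (adjusted p = 0.415). Intracellular lipid binding protein genes moved apart, lbp-9 by 1.01 ± 0.21 and lbp-3 by -0.85 ± 0.16. The falls in the list numbered 5 without atfs-1(null) replicate 1 and 1 without atfs-1(null) replicate 3 or wildtype replicate 2.

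Genes of haem transport fell. Worms do not make haem and take it up from their bacterial food through the HRG proteins. Of 16 genes of haem, iron and metal handling 6 fell and 2 rose in every setting tried, and all 6 that fell belong to the hrg class. The hypodermal haem-binding protein gene hrg-2 had 2.69, 3.27 and 2.43 CPM in atfs-1(null), against 22.4, 28.4 and 25.1 CPM in wildtype (log2 fold change -3.18 ± 0.20, adjusted p = 5.65e-06). The haem-trafficking gene hrg-9, a relative of human TANGO2, had 2.14, 2.46 and 2.04 CPM in atfs-1(null), against 7.87, 9.76 and 8.1 CPM in wildtype (log2 fold change -1.95 ± 0.17, adjusted p = 5.34e-05). In both, the highest atfs-1(null) library lay below the lowest wildtype library by a wide margin.

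The intestinal haem importers fell too, hrg-4 with 21.2, 25.7 and 19.5 CPM in atfs-1(null), against 51, 56.5 and 53.4 CPM in wildtype (log2 fold change -1.27 ± 0.17, adjusted p = 0.000737) and hrg-1 by -0.79 ± 0.14. The gene hrg-3, chosen after its values were seen, encodes a peptide that carries haem from the intestine to other tissues and stood at -1.29 ± 0.25. The secreted protease-like gene hrg-7, which signals haem status between tissues, was among the most abundant called transcripts, at 941 ± 97.2 TPM in atfs-1(null) and 1607 ± 59.5 TPM in wildtype (SD, n = 3 each), with log2 fold change -0.87 ± 0.12, adjusted p = 0.000843. The rises were the ferritin gene ftn-1, which stores iron, with 7.3, 6.06 and 4.08 CPM in atfs-1(null), against 1.59, 2.13 and 1.3 CPM in wildtype (log2 fold change 1.79 ± 0.26, adjusted p = 0.00128), and the metallothionein gene mtl-1 (3.58 ± 0.33). The second ferritin gene ftn-2 and the second metallothionein gene mtl-2 were not called (-0.27 ± 0.15 and -0.09 ± 0.29). In the double mutant against nhr-180(cmh19), 7 of the 16 were lower and 1 higher, with hrg-2 at -2.32 ± 0.21.

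Redox and sulphide genes showed single large changes rather than a shared one. Of 22 antioxidant genes 3 rose and 1 fell (18.2% called, against 14.3% of all genes). The extracellular superoxide dismutase gene sod-4 had 45.8, 45.5 and 37.2 CPM in atfs-1(null), against 13.7, 16.7 and 15.2 CPM in wildtype (log2 fold change 1.497 ± 0.15, adjusted p = 0.000145), while the mitochondrial sod-2, chosen after its values were seen, had 129, 107 and 86.8 CPM in atfs-1(null), against 122.4, 146 and 125 CPM in wildtype (adjusted p = 0.257). The glutathione peroxidase gene gpx-5 had 34.1, 38.4 and 37.3 CPM in atfs-1(null), against 102, 77.3 and 86 CPM in wildtype (log2 fold change -1.27 ± 0.18, adjusted p = 0.00119). The groups of sod-4 and of gpx-5 were well separated. The falls in the list numbered 2 without atfs-1(null) replicate 1 or 3. The rise of sod-3 (log2 fold change 0.72 ± 0.17, adjusted p = 0.0179) was lost without atfs-1(null) replicate 3 (0.0561), wildtype replicate 1 (0.0668) or wildtype replicate 3 (0.0527).

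Among 14 genes of the hypoxia and hydrogen sulphide response 4 rose and 3 fell. The HIF-1 targets rhy-1 (log2 fold change 1.08 ± 0.21, adjusted p = 0.0066) and nhr-57 (log2 fold change 1.15 ± 0.23, adjusted p = 0.00848) were higher, while hif-1 itself (-0.32 ± 0.19) and its hydroxylase egl-9 (-0.08 ± 0.22, chosen after its values were seen) were not called. The sulphite oxidase gene suox-1 fell, with 29.1, 37.7 and 31.7 CPM in atfs-1(null), against 57.6, 64.5 and 59.97 CPM in wildtype (log2 fold change -0.89 ± 0.14, adjusted p = 0.00188). The rises numbered 2 without atfs-1(null) replicate 3 or wildtype replicate 1 or 3, and the falls 1 without wildtype replicate 2 or 3.

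Inducible heat shock genes of the cytosol rose, while the constitutive hsp-1 was not called. Of 17 genes in a list of small heat shock proteins and inducible Hsp70, which also holds hsp-1, 10 rose and none fell. Without any single library, or without both that stood apart, 9 or 10 rose. For hsp-16.2 (chromosome V, 1804334 to 1804957) the libraries held 111, 132 and 95.9 CPM in atfs-1(null), against 0.609, 1.71 and 1.1 CPM in wildtype (log2 fold change 6.62 ± 0.35, adjusted p = 1.64e-06). The inducible hsp-70 had 20.8, 23 and 27 CPM in atfs-1(null), against 2.34, 2.54 and 2.8 CPM in wildtype (log2 fold change 3.20 ± 0.17, adjusted p = 2.31e-06), and hsp-43, a small heat shock protein gene, had 108, 113 and 103.97 CPM in atfs-1(null), against 45.7, 42.4 and 42.4 CPM in wildtype (log2 fold change 1.32 ± 0.12, adjusted p = 4.54e-05). The atfs-1(null) libraries agreed closely with one another in all 3 genes and lay far above wildtype.

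The further inducible Hsp70 genes F44E5.4 (3.09 ± 0.40) and F44E5.5 (2.36 ± 0.38) also rose. They are near-identical copies, as are hsp-16.48 and hsp-16.49, so their counts may be shared. Of hsp-16.49 there were 12, 18 and 6 counts in atfs-1(null), against 0, 0 and 0 counts in wildtype, and no fold change is given for it. The constitutive Hsp70 hsp-1 had 2861, 3144 and 3561 CPM in atfs-1(null), against 2986, 2528 and 2804 CPM in wildtype (adjusted p = 0.383), and the heat shock factor gene hsf-1 stood at 0.28 ± 0.17, not called. The genes F44E5.5 and hsp-16.49 were chosen after their values were seen. In the double mutant against nhr-180(cmh19) 11 of the 17 were higher, where 10.3% of all genes tested were, and hsp-16.2 differed by 6.59 ± 0.41.

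The beta-tubulin gene tbb-6, known as a reporter of a p38 kinase response to mitochondrial stress, had the smallest adjusted p of all genes. It had 589, 693 and 510.1 CPM in atfs-1(null), against 23.2, 28.4 and 25.6 CPM in wildtype (log2 fold change 4.54 ± 0.18, adjusted p = 8.81e-07). The 3 atfs-1(null) libraries exceeded the 3 wildtype libraries many-fold. The abundant beta-tubulin gene tbb-2, chosen after its values were seen, had 1919.6, 1799.8 and 1847 CPM in atfs-1(null), against 1444, 1288 and 1352 CPM in wildtype (log2 fold change 0.45 ± 0.13, adjusted p = 0.0371), a call lost without any 1 of the 6 libraries (0.0620 to 0.134). In the second set of libraries tbb-6 had 683, 673 and 524 CPM in the double mutant, against 3.84 and 3.89 CPM in nhr-180(cmh19), and here the effect was larger by 2.80 ± 0.25 (log2, adjusted p = 0.000507). With levels much alike in both genotypes that lack atfs-1, the difference lay in the lower level of nhr-180(cmh19) than of wildtype.

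Class I targets of the FOXO factor DAF-16, which acts when insulin signalling is low, were higher. Of 16 class I targets 11 rose and none fell, with a median of 1.15, and 10 or 11 rose without any single library and 10 without both that stood apart. The lysozyme gene lys-7 had 234, 171 and 170.0 CPM in atfs-1(null), against 16, 17.4 and 16.3 CPM in wildtype (log2 fold change 3.53 ± 0.17, adjusted p = 1.03e-06). Catalase ctl-2 had 110.2, 96.6 and 91 CPM in atfs-1(null), against 65.7, 53.7 and 55.4 CPM in wildtype (log2 fold change 0.77 ± 0.13, adjusted p = 0.00321). The glyoxylate cycle gene icl-1 had 375, 557 and 497 CPM in atfs-1(null), against 252, 179 and 213 CPM in wildtype (log2 fold change 1.15 ± 0.21, adjusted p = 0.00468). In all 3 the groups were clear of each other, by far most in lys-7.

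Further rises in this list were the desiccation protein gene lea-1 (1.44 ± 0.26), the embryonic small heat shock gene sip-1 (2.17 ± 0.44), btb-16 (1.16 ± 0.24), mtl-1, dod-3, fat-5 and ftn-1, of which lea-1, sip-1 and btb-16 were chosen after their values were seen. Members that were not called included gpd-2, nnt-1 (log2 fold change 0.79 ± 0.25, adjusted p = 0.0562) and the linker histone gene hil-1 (log2 fold change 0.94 ± 0.33, adjusted p = 0.0877), the last 2 chosen after their values were seen. The list shares mtl-1 and ftn-1 with the metal list and fat-5 with the desaturases. It also shares dod-3 with a list of 9 dod genes, of which 3 rose and 1 fell. That fall was not called without wildtype replicate 2 or 3. Transcript of daf-16 itself did not pass the test, with 86.8, 161 and 177 CPM in atfs-1(null), against 124, 109.5 and 113 CPM in wildtype (log2 fold change 0.29 ± 0.26, adjusted p = 0.481). In the double mutant against nhr-180(cmh19) 4 of the 16 were higher and 1 lower, against 10.3% and 8.21% of all genes. The median of the list relative to the wildtype mean was 0.84 and 0.70 (log2) in the nhr-180(cmh19) libraries. It was 0.82, 0.60 and 1.03 in the double mutant and 1.215, 1.119 and 1.078 in atfs-1(null). The list thus also stood above wildtype in nhr-180(cmh19), a genotype without the atfs-1 mutation.

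In the insulin pathway 4 of 35 genes rose and 1 fell, 14.3% called, which is the share of all genes. The insulin-like peptide gene ins-7 had 4.11, 3.31 and 3.51 CPM in atfs-1(null), against 0.375, 0.833 and 0.55 CPM in wildtype (log2 fold change 2.62 ± 0.26, adjusted p = 0.000111), and the regulatory subunit gene aap-1 of the phosphoinositide 3-kinase stood at 0.64 ± 0.13. The receptor gene daf-2, chosen after its values were seen, varied widely among atfs-1(null) libraries, with 34.2, 94.3 and 108 CPM in atfs-1(null), against 71.7, 70.7 and 70.6 CPM in wildtype, and was not called. The rises numbered 2 without wildtype replicate 1, and the fall, that of ins-3, was lost without any single library other than wildtype replicate 1, and with both that stood apart left out.

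Of 30 stress-related transcription factor genes 3 rose and none fell, and the 3 rose in every setting, joined by others without atfs-1(null) replicate 1 (5 in all) or with both libraries that stood apart left out (5). They were pqm-1, a zinc finger gene that acts opposite to DAF-16, with 53.3, 72.4 and 56.3 CPM in atfs-1(null), against 26.1, 29.9 and 28.9 CPM in wildtype (log2 fold change 1.101 ± 0.14, adjusted p = 0.000528), the nuclear receptor gene nhr-62 with 8.22, 7.17 and 7.42 CPM in atfs-1(null), against 3.94, 3.65 and 3.75 CPM in wildtype (log2 fold change 1.01 ± 0.15, adjusted p = 0.00121), and xbp-1, the factor of the endoplasmic reticulum stress response, with 488, 539.9 and 502 CPM in atfs-1(null), against 337, 277 and 300.4 CPM in wildtype (log2 fold change 0.74 ± 0.13, adjusted p = 0.00306). The groups did not overlap in any of them. The genes skn-1 (0.21 ± 0.18) and hlh-30 (0.20 ± 0.34) were not called. Nor was the endoplasmic reticulum chaperone gene hsp-4 (0.28 ± 0.15). Of 20 genes of that response the other called members were ckb-2, a choline kinase gene, at 1.09 ± 0.19, and pdi-2, a disulphide isomerase gene, at -0.67 ± 0.16, a call lost without atfs-1(null) replicate 2 (0.0502), wildtype replicate 2 (0.0664) or wildtype replicate 3 (0.0508), and with both libraries that stood apart left out.

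**Figure D3:**
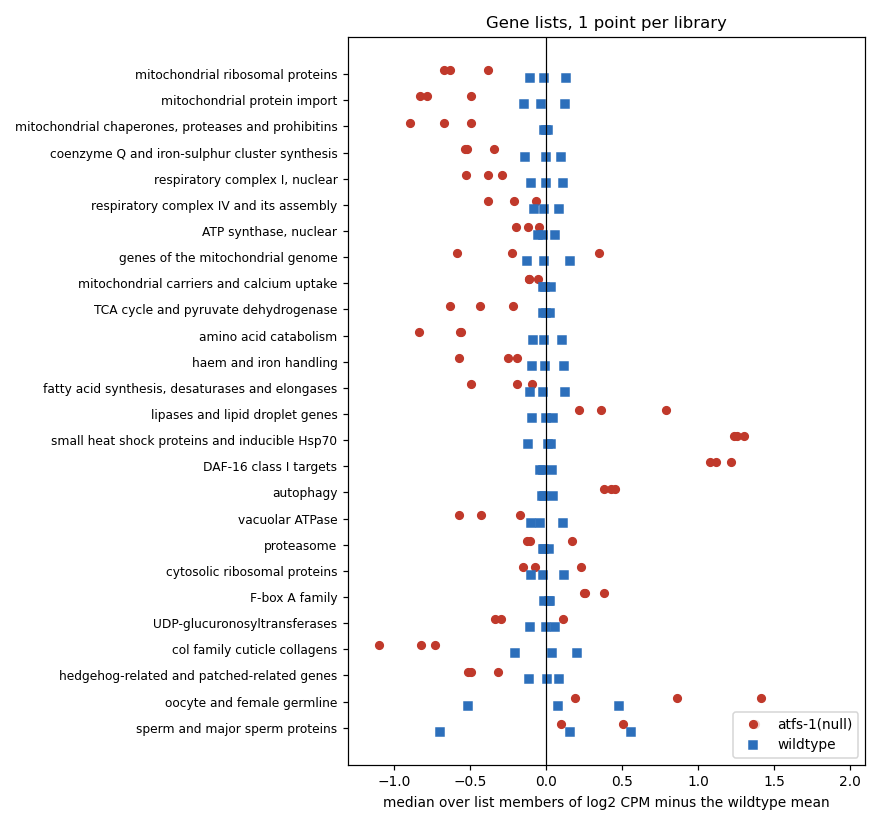
Median over the members of 26 gene lists of log2 CPM minus the wildtype mean, 1 red circle per atfs-1(null) library and 1 blue square per wildtype library. The small heat shock and DAF-16 target lists lie above 1 in all 3 atfs-1(null) libraries, and the sperm and oocyte lists spread over both genotypes.

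Lysosomal genes moved in parts. Autophagy genes rose in 12 of 28 cases and none fell, while 6 of 21 vacuolar ATPase genes, which acidify the lysosome, fell and none rose. The autophagy count was 7 without wildtype replicate 1 and 6 without wildtype replicate 3, and 8 with both libraries that stood apart left out. The vacuolar ATPase count was 3 without atfs-1(null) replicate 1 or 3, 2 without wildtype replicate 1, 0 without wildtype replicate 2 and 1 without wildtype replicate 3, and 0 without both. In the double mutant against nhr-180(cmh19), 5 of the 28 autophagy genes were higher and none lower. Of the 21 vacuolar ATPase genes 1 was higher there and none lower, against 10.3% and 8.21% of all genes. Among 23 cathepsin-like protease genes 5 rose and 2 fell. The aspartyl protease gene asp-8 had 27.9, 22.9 and 15 CPM in atfs-1(null), against 176, 267 and 211 CPM in wildtype (log2 fold change -3.31 ± 0.27, adjusted p = 3.02e-05), one of the largest falls outside the yolk and collagen genes. The cysteine protease gene cpr-1 had 910.3, 572 and 670.4 CPM in atfs-1(null), against 209.8, 263 and 222 CPM in wildtype (log2 fold change 1.63 ± 0.20, adjusted p = 0.000369) and cpr-8 had 44.5, 50.3 and 54.3 CPM in atfs-1(null), against 85.7, 87.5 and 86.3 CPM in wildtype (log2 fold change -0.80 ± 0.13, adjusted p = 0.00257). These 3 were clear of overlap. The rises numbered 1 without atfs-1(null) replicate 3 or wildtype replicate 1, 3 without wildtype replicate 2 and 2 without wildtype replicate 3, and 3 without both that stood apart.

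Immune effector genes changed in both directions. Of 13 lysozyme genes 6 rose and 1 fell. The rises numbered 3 without wildtype replicate 1 or 3, and the falls 3 without atfs-1(null) replicate 1 and 0 without atfs-1(null) replicate 3 or wildtype replicate 1 or 3 and 3 with both libraries that stood apart left out. Of 59 antimicrobial peptide and related genes 11 rose and 5 fell, and all 5 falls were of the fipr class, a grouping made after the values were seen. The thaumatin-like genes thn-2 and thn-1 led, thn-2 with 186, 111 and 116 CPM in atfs-1(null), against 18.8, 12.5 and 18 CPM in wildtype (log2 fold change 3.07 ± 0.23, adjusted p = 1.93e-05) and thn-1 by 3.66 ± 0.34. The caenacin genes cnc-4 (2.52 ± 0.20) and cnc-2 (2.70 ± 0.39) and the saposin-like gene spp-2 (1.77 ± 0.25) also rose. In cnc-4 there were 23.5, 31.9 and 22.1 CPM in atfs-1(null), against 4.83, 4.07 and 4.65 CPM in wildtype. The rises numbered 7 without wildtype replicate 1 or 3, and the falls 1 without atfs-1(null) replicate 3 or wildtype replicate 2, 3 without wildtype replicate 1 and 2 without wildtype replicate 3, and 3 without both that stood apart. In the double mutant against nhr-180(cmh19), 1 of the 13 lysozyme genes was higher and 1 lower. Of the 59 antimicrobial and related genes 5 were higher there and 5 lower, against 10.3% and 8.21% of all genes.

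Of 139 C-type lectin genes 29 rose and 17 fell, against 7.54% and 6.77% of all genes. Among them clec-52 had 30.2, 14.6 and 10.6 CPM in atfs-1(null), against 1.17, 1.57 and 1.9 CPM in wildtype (log2 fold change 3.58 ± 0.38, adjusted p = 0.000186) and the abundant clec-63 had 2213, 1949.5 and 1979 CPM in atfs-1(null), against 1616, 1239 and 1464 CPM in wildtype, a call (log2 fold change 0.51 ± 0.14, adjusted p = 0.0307) lost without atfs-1(null) replicate 1 (0.0597), atfs-1(null) replicate 3 (0.0564), wildtype replicate 2 (0.117) or wildtype replicate 3 (0.103). The rises in the family numbered 14 without wildtype replicate 1 and 13 without wildtype replicate 3, and the falls 11 without atfs-1(null) replicate 3 and 10 without wildtype replicate 3. In the double mutant against nhr-180(cmh19), falls outnumbered rises in the family. There 10 of the 139 were higher and 25 lower, against 10.3% and 8.21% of all genes. Of 27 infection response and pals genes 9 rose and none fell, irg-2 by 1.89 ± 0.27, irg-5 by 2.01 ± 0.32 and pals-32 by 2.74 ± 0.23. That count was 5 without wildtype replicate 3. In the double mutant against nhr-180(cmh19), 3 of the 27 were higher and 4 lower. F-box A genes, a large family of ubiquitin ligase adaptors, rose in 30 of 149 cases and fell in 4, and without single libraries the rises numbered 21 to 27 and the falls 2 without atfs-1(null) replicate 2 and 1 without wildtype replicate 1 or 3. In fbxa-182 the libraries held 8.35, 12.7 and 9.07 CPM in atfs-1(null), against 2.95, 3.24 and 2.55 CPM in wildtype (log2 fold change 1.78 ± 0.20, adjusted p = 0.000253).

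Detoxification families changed in both directions. Cytochrome P450 genes were 11 higher and 11 lower of 66. The gene cyp-13A12 had 1.34, 0.551 and 0.911 CPM in atfs-1(null), against 12.9, 10.1 and 11.2 CPM in wildtype (log2 fold change -3.60 ± 0.29, adjusted p = 2.62e-05), and cyp-14A1 stood at -2.73 ± 0.30. Its relative cyp-14A5 went the other way, with 71.7, 129 and 105 CPM in atfs-1(null), against 19.4, 26.8 and 21.3 CPM in wildtype (log2 fold change 2.18 ± 0.27, adjusted p = 0.000412), so even members of the cyp-14A subfamily differed in sign. Higher P450 genes numbered 6 without wildtype replicate 1 or 3, and lower ones 7 without atfs-1(null) replicate 3 or wildtype replicate 1 and 4 without wildtype replicate 3.

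Of 64 UDP-glucuronosyltransferase genes, which conjugate small molecules for excretion, 14 fell and 10 rose. The gene ugt-62 had 59, 62.3 and 51.7 CPM in atfs-1(null), against 257, 259.9 and 258 CPM in wildtype (log2 fold change -2.16 ± 0.13, adjusted p = 4.76e-06), a fall with almost no spread in wildtype. The gene ugt-19 had 7.97, 10.4 and 7.72 CPM in atfs-1(null), against 38.4, 47.8 and 40.0 CPM in wildtype (log2 fold change -2.27 ± 0.17, adjusted p = 1.96e-05). Rises were those of ugt-53, with 24.5, 26.9 and 25.2 CPM in atfs-1(null), against 6.61, 7.35 and 7.35 CPM in wildtype (log2 fold change 1.85 ± 0.13, adjusted p = 1.09e-05), and of ugt-43 (2.61 ± 0.18). The higher genes in the family numbered 4 without wildtype replicate 3. Of 51 glutathione S-transferase genes 5 fell and 3 rose, 15.7% called, close to the 14.3% of all genes. The omega-class gsto-1 fell, with 86.2, 114.1 and 94.4 CPM in atfs-1(null), against 195, 304 and 232 CPM in wildtype (log2 fold change -1.31 ± 0.22, adjusted p = 0.00251), while gst-4, a reporter of SKN-1 activity, had 46.5, 47.3 and 32.8 CPM in atfs-1(null), against 44.5, 47.4 and 46.3 CPM in wildtype and was not called (adjusted p = 0.655). The glutathione S-transferase falls numbered 3 without atfs-1(null) replicate 3 or wildtype replicate 2 and 2 without wildtype replicate 3, and the rises 1 without wildtype replicate 1 and 0 without wildtype replicate 3. The flavin-containing monooxygenase gene fmo-2 had 26, 28.4 and 23.5 CPM in atfs-1(null), against 3.61, 4.39 and 3.9 CPM in wildtype (log2 fold change 2.71 ± 0.17, adjusted p = 5.65e-06).

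Nuclear hormone receptor genes, a family much enlarged in this worm, were 26 higher and 15 lower of 200 (20.5% called, against 14.3% of all genes). The gene nhr-155 had 47.5, 38.9 and 29.1 CPM in atfs-1(null), against 0.375, 2.08 and 1.5 CPM in wildtype (log2 fold change 4.86 ± 0.43, adjusted p = 5.33e-05). Falls included nhr-115, with 2.1, 2.21 and 2.47 CPM in atfs-1(null), against 5.95, 7.68 and 7 CPM in wildtype (log2 fold change -1.60 ± 0.17, adjusted p = 0.000196), and nhr-74 (-2.12 ± 0.29). The gene nhr-180, mutated in the other strains of the set, was not called here, with 4.49, 5.13 and 4.25 CPM in atfs-1(null), against 3.05, 4.02 and 4.05 CPM in wildtype (log2 fold change 0.32 ± 0.19, adjusted p = 0.286). Higher receptors numbered 17 without atfs-1(null) replicate 3 and 16 without wildtype replicate 1, and lower ones 8 without wildtype replicate 3.

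Among collagen, yolk and hedgehog-related genes falls outnumbered rises. Of 131 col-family collagens 48 fell and none rose (63 and 5 with both libraries that stood apart left out), and all 6 yolk genes fell under every setting. In the double mutant against nhr-180(cmh19), 57 of the 131 collagens were called lower and 4 higher, against 8.21% and 10.3% of all genes. The collagen median relative to the wildtype mean was -0.73, -0.82 and -1.09 (log2) in atfs-1(null). It was -0.48, -0.50 and -1.21 in the double mutant and 0.53 and 0.74 in nhr-180(cmh19). Of 68 hedgehog-related and patched-related genes, many of them expressed in the skin with the moult, 10 fell and 3 rose (19.1% called, against 14.3% of all genes). The gene wrt-4 had 67.6, 23.1 and 24.7 CPM in atfs-1(null), against 333, 190.3 and 271 CPM in wildtype (log2 fold change -2.78 ± 0.41, adjusted p = 0.00144), grd-1 had 34.6, 32.3 and 32.6 CPM in atfs-1(null), against 91.1, 111 and 99.4 CPM in wildtype (log2 fold change -1.60 ± 0.18, adjusted p = 0.00025) and the patched-related ptr-22 had 3.06, 4.5 and 4.29 CPM in atfs-1(null), against 0.797, 0.971 and 0.95 CPM in wildtype (log2 fold change 2.12 ± 0.22, adjusted p = 0.000155). In wrt-4 the wildtype libraries varied among themselves, with replicate 2 the lowest, but all lay above all atfs-1(null) libraries. The falls numbered 6 without atfs-1(null) replicate 3 or wildtype replicate 1 and 5 without wildtype replicate 3, 15 without atfs-1(null) replicate 1 and 17 with both libraries that stood apart left out, and the rises 1 without atfs-1(null) replicate 3 or wildtype replicate 1 or 3. The hypodermal moulting gene mlt-10 fell (log2 fold change -1.32 ± 0.22, adjusted p = 0.00269).

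The timing genes themselves were mostly not called. Of 17 heterochronic genes 1 was, the gene let-7, which was lower. That call was lost without atfs-1(null) replicate 3, wildtype replicate 2 or wildtype replicate 3. Without atfs-1(null) replicate 1 there were also 2 rises, and with both libraries that stood apart left out there were 3 rises and 0 falls. The gene lin-29, the factor that starts the adult skin program, had 34.3, 47.1 and 42.6 CPM in atfs-1(null), against 43.4, 67.2 and 54.7 CPM in wildtype (log2 fold change -0.41 ± 0.18, adjusted p = 0.157). Tissue markers differed in their calls: of 14 intestine markers 3 fell, of 18 muscle markers 4 fell, and of 10 hypodermis, 9 pharynx, 4 coelomocyte and 14 germline markers edgeR called none (1, 0, 1 and 1 at an unadjusted p under 0.05, and 0 by DESeq2 in all 4 lists). The synaptobrevin gene snb-1 rose among 16 neuron markers (log2 fold change 0.76 ± 0.14, adjusted p = 0.0048) and the metalloprotease gene zmp-1 among 8 vulva and uterus markers (log2 fold change 1.33 ± 0.17, adjusted p = 0.000523). The intestine falls numbered 1 without atfs-1(null) replicate 3 and 0 without wildtype replicate 1, 2 or 3 and the muscle falls 2 without wildtype replicate 1 and 1 without wildtype replicate 3; without both libraries that stood apart they numbered 0 and 1.

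Called genes were spread over all chromosomes, and among nuclear chromosomes most densely on V. There 20.1% of 3284 tested genes were called, against 10.5% of 2558 on chromosome I, 14.2% on II, 11.1% on III, 13.3% on IV and 15.1% on X. On X falls outnumbered rises, 236 to 107, whereas on V rises outnumbered falls, 399 to 260. Within 1 Mb of atfs-1 itself 41 of 395 tested genes rose and 23 fell. Gene family and position were not separated here.

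Some called genes were neighbours. In 11 places at least 5 adjacent tested genes were called in the same direction, and 7 of these places lie on chromosome V. From 579277 to 595677 on V 7 genes rose by 4.94 to 6.72, among them K06H6.2, with 149.6, 59.97 and 48.1 CPM in atfs-1(null), against 1.5, 1.39 and 1.3 CPM in wildtype, and ZK488.6. Close by, from 536628 to 564446, 7 genes rose by 1.18 to 5.51, nhr-155 and C14C6.7 among them. On chromosome III 6 F-box A genes from 1282401 to 1308294 rose by 0.92 to 2.66, including fbxa-36 (2.66 ± 0.34), fbxa-34 (1.33 ± 0.24) and fbxa-37 (1.09 ± 0.20). All 6 were also called higher in the double mutant against nhr-180(cmh19), as were all 7 of the K06H6 and ZK488 group. Near irg-2, from 4034476 to 4047433 on V, 6 genes rose by 0.63 to 2.09, with phat-3 at 1.40 ± 0.18. In the other direction 7 genes from 16926922 to 16958077 on V fell by 1.34 to 2.37 on the log2 scale, with the lectin genes clec-237, clec-238 and clec-239 (-2.37 ± 0.34) among them. The call of clec-237 was lost without atfs-1(null) replicate 1 (0.0539), atfs-1(null) replicate 3 (0.0744) or wildtype replicate 3 (0.114), and that of clec-238 without wildtype replicate 1 (0.0521). Genes named in this paragraph other than irg-2, nhr-155 and clec-239 were chosen after their values were seen, and reads shared between similar neighbours make single values uncertain.

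A few genes were low in atfs-1(null) and also low in both other mutant stocks. In 4 genes every one of the 8 mutant libraries lay more than 4-fold below the lowest wildtype library: haf-6, D1014.6, D1014.7 and BE0003N10.6. The ABC transporter gene haf-6 had 5.58, 6.74 and 6.94 CPM in atfs-1(null), against 51.8, 57.8 and 52.9 CPM in wildtype, with 7.01, 7.34 and 8.37 CPM in the double mutant and 5.94 and 6.87 CPM in nhr-180(cmh19). Of D1014.6 there were 2, 1 and 0 counts in atfs-1(null), against 557, 436 and 479 counts in wildtype, and of D1014.7 0.21, 0.466 and 0.217 CPM in atfs-1(null), against 15.4, 14.7 and 16.05 CPM in wildtype. In the opposite direction 14 genes were more than 4-fold above every wildtype library in all 8 mutant libraries, with fmo-2, tts-1, dod-3, clec-61, adh-1, scb-1, pud-3, pud-4, K06H6.2, ZK488.6 and F17C11.22 among them. Of the genes with at least 5 CPM that were more than 4-fold away from wildtype in every atfs-1(null) library, 29 lower and 47 higher, these are 4 and 14. For such genes an effect of atfs-1 and a difference between the wildtype stock and the mutant stocks cannot be told apart. The genes D1014.6, BE0003N10.6, adh-1, scb-1, pud-3, pud-4, K06H6.2 and ZK488.6 were chosen after their values were seen.

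The same loss was measured a second time in the double mutant against nhr-180(cmh19), which shares no library with the main comparison. There 2961 genes were called (18.5%), 1647 higher and 1314 lower. Of 30 oocyte genes 24 were called higher there, and of 30 replication and cell cycle genes 21, against 10.3% of all genes. In the main comparison 2 of each list were called higher. There 21 oocyte and 18 replication genes had an unadjusted p under 0.05 by edgeR, and DESeq2 called 15 and 6. The log2 fold change was positive in 27 and 29 of the 30, with medians of 0.90 and 0.38, so both lists leaned upward in the main comparison too. The oocyte genes summed to 4109, 4637 and 6326 CPM in the double mutant, against 2377 and 2014 CPM in nhr-180(cmh19). The part of this germline difference in the counts below was not tested. Of the 2291 genes called in atfs-1(null) against wildtype, 998 were called in the same direction in the second comparison, which is 43.6% of the first set and 33.7% of the second, and 39 were called in opposite directions. The sign was the same for 2020 of the 2291 (88.2%). Across the 2291 genes, which are not independent, the log2 fold changes had a Pearson correlation of 0.756, and across all genes tested it was 0.595. Of the 942 genes called under every setting 518 were also called in the same direction. The second count rests on 2 control libraries: it was 843 without nhr-180(cmh19) replicate 2, 437 without replicate 3, and 1911, 1819 and 1753 without double mutant replicates 1, 2 and 3.

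Of the 12 largest rises 10 were called higher again, and of the 12 largest falls 4 were called lower again. The protease gene asp-8 was called lower in both, at -3.31 ± 0.27 in atfs-1(null) against wildtype and -3.30 ± 0.29 in the double mutant against nhr-180(cmh19). Likewise ugt-62 had 57.7, 67.2 and 54 CPM in the double mutant, against 201 and 202 CPM in nhr-180(cmh19), a change of -1.76 ± 0.14, and sod-4 had 38.9, 38.9 and 34.6 CPM in the double mutant, against 13.6 and 17.9 CPM in nhr-180(cmh19) (1.25 ± 0.18). Yolk genes were not called in the second set, where vit-2 had 2209, 3432 and 2010.2 CPM in the double mutant, against 3564 and 2007 CPM in nhr-180(cmh19) (log2 fold change -0.13 ± 0.42, adjusted p = 0.863). The difference between backgrounds was called in 182 genes (1.14%), 44 with a more positive change in the nhr-180(cmh19) background (0.275%) and 138 with a more negative one (0.862%). Of the 182, 146 were also called in atfs-1(null) against wildtype, and in 124 of these 146 the change was smaller in size in the nhr-180(cmh19) background. That count of 182 was between 65 and 456 when single libraries were left out, 65 without nhr-180(cmh19) replicate 2 and 456 without atfs-1(null) replicate 1.

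**Figure D4:**
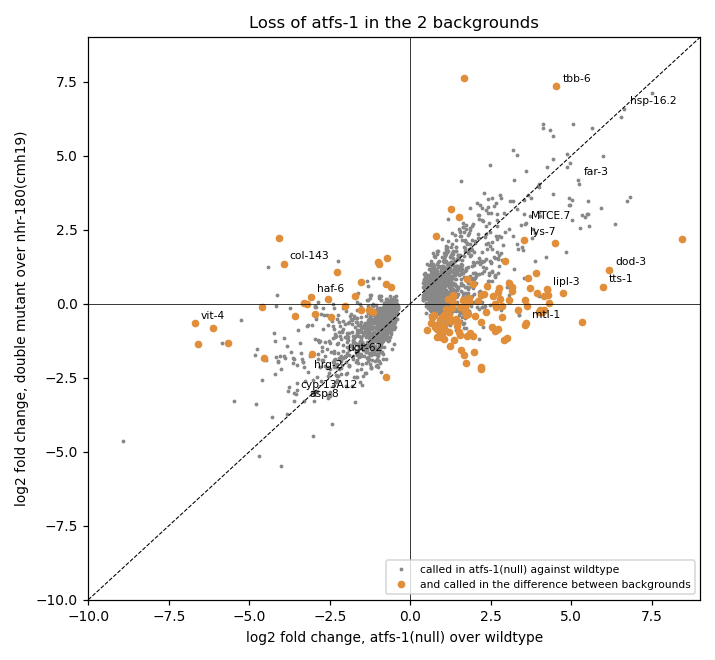
Log2 fold change of the double mutant over nhr-180(cmh19) (vertical axis) against that of atfs-1(null) over wildtype (horizontal axis) for the 2291 genes called in atfs-1(null) against wildtype, with the line of equal change dashed. Genes such as hsp-16.2 and asp-8 lie on the line, and the 146 orange genes are those whose effect differed between the backgrounds by edgeR's test.

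**Figure D5:**
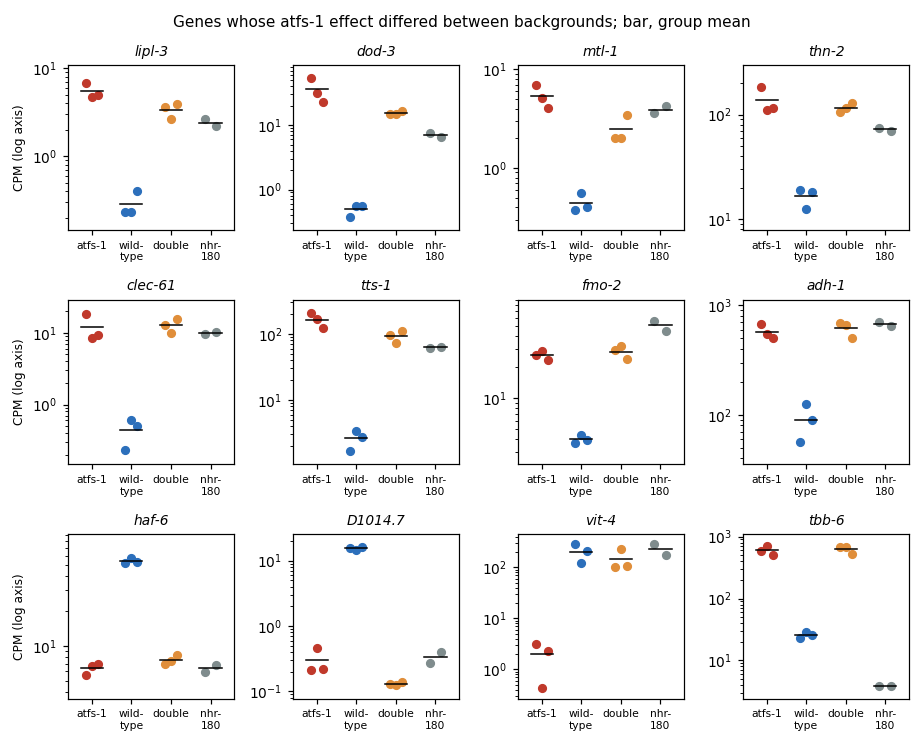
CPM on a log axis in the 3 atfs-1(null), 3 wildtype, 3 double mutant and 2 nhr-180(cmh19) libraries for 12 genes whose atfs-1 effect differed between backgrounds, with group means as bars. In lipl-3, dod-3, clec-61 and tts-1 all 8 mutant libraries lie above wildtype, in haf-6 and D1014.7 all 8 lie below it, and tbb-6 is high in both genotypes that lack atfs-1.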

How the data were processed

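RNA was taken from whole L4 larvae, 11 samples of 4 genotypes, and the comparison used 3 samples each of atfs-1(null) and wildtype. The deposited table of raw counts per gene was made by the authors; the submitters' processing notes name featureCounts 1.5.2; libraries were strand-specific and paired-end, per the labels' protocols. The aligner, annotation and strandedness of counting are not stated in the labels, so overlapping, antisense and near-identical genes are uncertain. The deposited TPM values are length-normalised by the authors and cover 18798 genes. Of 46926 gene identifiers 46863 had the same start and end in the WBcel235 annotation of Ensembl.

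Counts were filtered with filterByExpr and tested with edgeR 4.0.16 (R 4.3.3), with TMM factors, 1 mean per genotype over all 11 libraries and a quasi-likelihood F-test, two-sided. A gene is called, or is said to rise or fall, at a Benjamini-Hochberg adjusted p under 0.05; values are log2 fold changes ± SE unless a level is named. CPM is scaled by the TMM-adjusted library size. The common biological coefficient of variation was 21.7%. Data were simulated from the measured means with 16013 genes, of which 200 with a mean of at least 5 CPM were changed. There atfs-1(null) against wildtype recovered 52% of 2-fold and 99% of 4-fold changes, and 0.658% of calls were false. The simulated share of changed genes was smaller than the share called in the data, and less abundant genes were not changed.

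The alternatives were DESeq2 1.42.0 size factors and Wald test, no filter, a replicate block, a fit of the 6 libraries, limma 3.58.1 on log2(TPM + 1) or log2(TPM + 0.1), with or without at least 1 TPM in 2 libraries, leaving out each library, and leaving out both libraries that stood apart.

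Members and lists were chosen with earlier results of these data known. Lists (68, written from gene names) are described by counts and medians, with no test of the list. Named genes were the 12 largest rises and 12 largest falls (gene-class name, called, mean of at least 5 CPM, groups not overlapping); up to 5 called members per direction of each list and 2 members that were not called; the 10 most abundant called genes; the 10 of smallest adjusted p; and a fixed set of stress and metabolic genes. Parts after the first could be left out, and other genes are marked. Sequences of promoters and proteins were not used here.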

Additional observations from a re-analysis of the deposited data

Results flagged for a closer look

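The following genes were singled out because the effect of losing atfs-1 differed between the wildtype and nhr-180(cmh19) backgrounds by edgeR's test of the difference itself, at an adjusted p under 0.05. The value given for each is the log2 fold change of the double mutant over nhr-180(cmh19) minus that of atfs-1(null) over wildtype, ± SE. No cause was tested. Of these 36 genes 19 kept the call without any single library, and the other 17 lost it without at least 1: lipl-1, lys-7, icl-1, pqm-1, thn-1, irg-5, cyp-32B1, nhr-234, ckb-2, pud-3, pud-4, F58G6.3, vit-4, vit-5, vit-6, nnt-1 and pals-33.

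In most of them the change was more negative in the nhr-180(cmh19) background. Apart from ckb-2, the mean level of nhr-180(cmh19) lay above that of wildtype in each gene of this paragraph. These were the noncoding RNA tts-1 (-5.40 ± 0.39), dod-3 (-5.03 ± 0.45), the lectin genes clec-61 (-4.37 ± 0.53) and clec-52 (-4.31 ± 0.53), the metallothionein gene mtl-1 (-4.22 ± 0.44), pals-33 (-4.14 ± 0.77) and pals-32 (-2.21 ± 0.31). The lipase genes lipl-3 (-3.75 ± 0.41), fil-1 (-2.49 ± 0.33) and lipl-1 (-1.65 ± 0.28) followed, with the oxygenase genes fmo-2 (-3.55 ± 0.24) and cyp-32B1 (-1.65 ± 0.32). So did pud-4 (-3.55 ± 0.64), pud-3 (-3.42 ± 0.60), adh-1 (-2.79 ± 0.38), scb-1 (-2.64 ± 0.23), F17C11.22 (-2.45 ± 0.28), nnt-1 (-2.001 ± 0.36), ckb-2 (-1.98 ± 0.29), icl-1 (-1.59 ± 0.31), lys-7 (-1.38 ± 0.23) and the factor gene pqm-1 (-1.28 ± 0.21). Immune effector genes in this set were spp-2 (-2.85 ± 0.36), thn-1 (-2.79 ± 0.48), thn-2 (-2.37 ± 0.32) and irg-5 (-2.42 ± 0.46). Levels of adh-1 were 669.7, 549.7 and 499 CPM in atfs-1(null), against 56.3, 125 and 89.9 CPM in wildtype, with 695, 660.4 and 502 CPM in the double mutant and 705 and 641 CPM in nhr-180(cmh19).

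The change was less negative in the nhr-180(cmh19) background for the yolk genes vit-4 (6.03 ± 0.88), vit-5 (4.49 ± 0.77) and vit-6 (3.17 ± 0.65), the collagen gene col-143 (5.29 ± 0.68), haf-6 (3.32 ± 0.23), D1014.7 (4.34 ± 0.60), BE0003N10.6 (5.24 ± 0.70), the nuclear receptor gene nhr-234 (2.70 ± 0.56) and F58G6.3 (1.33 ± 0.24). The yolk genes were low in atfs-1(null) and not in the double mutant, vit-6 with 293, 102 and 175 CPM in atfs-1(null), against 3198, 1338 and 2324 CPM in wildtype and with 2364, 3835 and 2109 CPM in the double mutant. The tubulin gene tbb-6 alone rose more in the nhr-180(cmh19) background (2.80 ± 0.25) among the genes named in the text.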

How the results depend on the processing

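The number of genes called in atfs-1(null) against wildtype was 2212 with DESeq2 size factors, 2111 with no filter, 2264 with a replicate block, 2125 with both libraries that stood apart left out, 2552, 2080 and 2381 by limma on log2(TPM + 1), log2(TPM + 0.1) and log2(TPM + 1) with a TPM minimum, and 2964 by the DESeq2 Wald test. It was 1161 in a fit of the 6 libraries alone and 1132 to 2408 when single libraries were left out. For the double mutant against nhr-180(cmh19) it was 4643 with both libraries left out and 437 to 1911 with single libraries left out. The count of genes whose effect differed between backgrounds was 482 with both left out, 488 by DESeq2 and 65 to 456 with single libraries left out. The causes were not tested. The labels give no shared day or batch, so the replicate number was not a block in the main fit. Deviations of same-numbered libraries correlated at 0.0719, 0.362 and 0.0261, where the value for replicate 2 was the highest of all pairs. By contrast, atfs-1(null) replicate 3 correlated best with wildtype replicate 1 (0.237). With 3 libraries per group these values cannot decide whether the samples were paired.

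Of 3133 alternative values of the 209 genes named, 2983 kept direction and side of the threshold, 113 lost the call, 9 gained it and 28 changed sign. The last belong to 10 genes that were not called. On TPM, with a pseudocount of 1 or 0.1, those were clk-1 (0.0347 and 0.0354), iscu-1 (0.0787 and 0.0793) and cox-4 (0.0318 and 0.0318). The gene ivd-1 stood at -0.0140 with DESeq2 size factors, -0.0110 with no filter, -0.0139 by the DESeq2 Wald test and -0.00424 with both libraries left out, and egl-9 at 0.22 with both left out. With single libraries left out the values ran over 0, from -0.67 to 0.055 (rrn-2.1), -0.14 to 0.49 (daf-2), -0.042 to 0.51 (hlh-30), -0.22 to 0.028 (gst-4), -0.21 to 0.092 (clk-1), -0.20 to 0.14 (iscu-1), -0.072 to 0.059 (ivd-1), -0.30 to 0.12 (egl-9) and -0.53 to 0.15 (mtl-2). The medians of 21 of the 68 lists changed sign under some setting, and none of these medians over the 3 libraries is given. In the simulation 52% of 2-fold changes, set in genes with a mean of at least 5 CPM, were recovered, so smaller changes may go uncalled.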
